A study of Mus musculus with 12 samples.

Results

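Knockdown of Klf4 in cultured murine airway smooth muscle cells (SMCs) was followed by changes that reached well past chemokines. Genes of the contractile apparatus, the mitotic machinery, the interferon response and glycolysis were more often called higher than lower with Klf4 siRNA (siKlf4), whereas complement genes, matrix glycoproteins, receptors for contractile agonists and mRNAs encoded by the mitochondrial genome were more often called lower than higher. The comparison rested on 6 of the 12 bulk RNA-seq libraries of the study, 3 from SMCs given siKlf4 and 3 from SMCs given scrambled RNA (Scr). It took in every gene with a mean of at least 1 TPM (transcripts per 1000000) over the 6 libraries, which left 13709 of the 52636 genes listed. The SMCs were purchased tracheal smooth muscle cells of C57BL/6 mice, labelled WT for Scr and Klf4 KD for siKlf4, used at passages 2 to 4 in medium with EGF, FGF and 10% serum. Age is not given for them. Both groups were serum starved for 2 h, transfected for 6 h and then kept in culture for 72 h. The control cells thus carried a transfection too. The methods give 50 nM for siKlf4 and no separate dose for Scr. The other 6 libraries were used here only to ask where SMCs differ. They came from PDGFR-β+ lung cells of 12-weeks old C57BL/6 mice, given siKlf4 or Scr. The study sorted these from tamoxifen-treated mice with Pdgfrb-CreERT2 and a ZsGreen reporter allele, as cells marked by that fluorescent reporter. It names alternative transfection reagents and siRNA suppliers without saying which served which cells.

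KLF4 is a zinc finger transcription factor of the Krüppel-like family that binds GC-rich and CACCC-type elements and can activate or repress a gene. In smooth muscle it is best known as a repressor of contractile genes: these are driven by serum response factor (SRF) and its cofactor myocardin at CArG boxes, and KLF4 opposes them when the cells leave the contractile state. It is also known as a brake on the cell cycle. Airway SMCs contract in response to acetylcholine, thromboxane, histamine and other agonists, and they also secrete matrix and inflammatory mediators, so both faces of the cell were examined.

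All 6 libraries summed to 1000000 TPM, and between 20590 and 21705 genes were above 0 in each. In each group 1 library carries no replicate number, and these 2 stood apart from the 4 numbered ones on the second principal component (16.5% of the variance), while the first (57.3%) separated siKlf4 from Scr. The targeted gene itself, Klf4 (chr4:55527143-55532466, minus strand), was measured at 89.56, 96.27 and 95.03 TPM in the Scr libraries and at 26.5, 16.33 and 18.79 TPM in the siKlf4 libraries. The groups did not overlap and 21.9% of the Scr mean remained. On the log2 scale Klf4 changed by -2.16 with a standard error (SE) of 0.163 (adjusted p = 7.5e-04, limma). Throughout, fold changes are siKlf4 over Scr on the log2(TPM + 1) scale, and a gene is called higher or lower where limma's test gave an adjusted p under 0.05. For a single gene, 3 libraries against 3 cannot give an exact two-sided permutation p below 0.1. Where nothing in the sources ties a library to a separate animal, p-values measure the spread between libraries only.

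The cells carried the marker genes of smooth muscle and also those of fibroblasts, whose sum was the higher one with Scr. With siKlf4 the ranges of these sums overlapped, and sums over unlike lists do not rank the cell types. The 12 listed airway smooth muscle markers summed to between 1569 and 2354 TPM with Scr, against between 3491 and 4277 TPM with siKlf4. Of these markers 11 reached 1 TPM, 8 were called higher and none lower. Myocd, which encodes myocardin, was at 0.03 to 0.21 TPM over the 6 libraries, so this defining gene was near 0, and Des, which encodes the intermediate filament desmin, was at 1.74 to 2.99 TPM. Fibroblast markers summed to 5703 to 6082 TPM with Scr against 3966 to 4455 TPM with siKlf4, and 5 of 9 tested were lower, among them Col1a2, Col3a1 and Tcf21. Pericyte markers summed to 275 to 308.3 TPM and 241.3 to 303.4 TPM, with 2 of 8 lower, and chondrocyte markers to 110.3 to 153.1 TPM and 87.25 to 124.7 TPM, with 1 of 3 lower. The remaining lists were low: epithelium 1.93 to 3.43 and 2.10 to 2.59 TPM (none of 1 tested called, with Krt8, Krt14 and Esrp1 at 0), endothelium 3.65 to 6.62 and 5.24 to 6.91 TPM (Kdr higher of 2, with Tie1 and Cldn5 at 0). Macrophage and leukocyte markers summed to 45.45 to 49.63 and 24.85 to 29.61 TPM, with Cd14 lower of 3 tested and Adgre1, Cd3e, Laptm5 and Tyrobp at 0. Mesothelial markers gave 31.15 to 40.61 and 27.24 to 34.58 TPM (1 of 4 higher, 3 lower), Schwann cell and neuron markers 41.22 to 46.83 and 24.75 to 31.12 TPM (1 of 4 lower), and skeletal muscle markers 9.46 to 10.97 and 7.549 to 12.31 TPM (1 of 3 higher, 1 lower). In bulk RNA, a change in the number of cells of a type and a change in RNA per cell cannot be told apart, and the part of the marker shifts in the results below was not tested.

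Of the 13709 genes tested, 28.5% were called, 15.6% higher and 12.9% lower, and these shares are the background for every class described here. A change of at least 1 on the log2 scale was reached by 1.47% of genes upward and by 2.18% downward. The groups did not overlap for 47.1% of all genes, called or not, so non-overlap alone is common in these data. The median log2 fold change over all genes was 0.02. Genes were sorted into 33 functional classes, of which 1449 distinct genes were tested, 402 called higher and 270 lower. The mean of the 6 libraries decided whether a gene was tested, and a gene could pass through its high group alone, so the class counts cover the members tested and not every member.

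**Figure D1:**
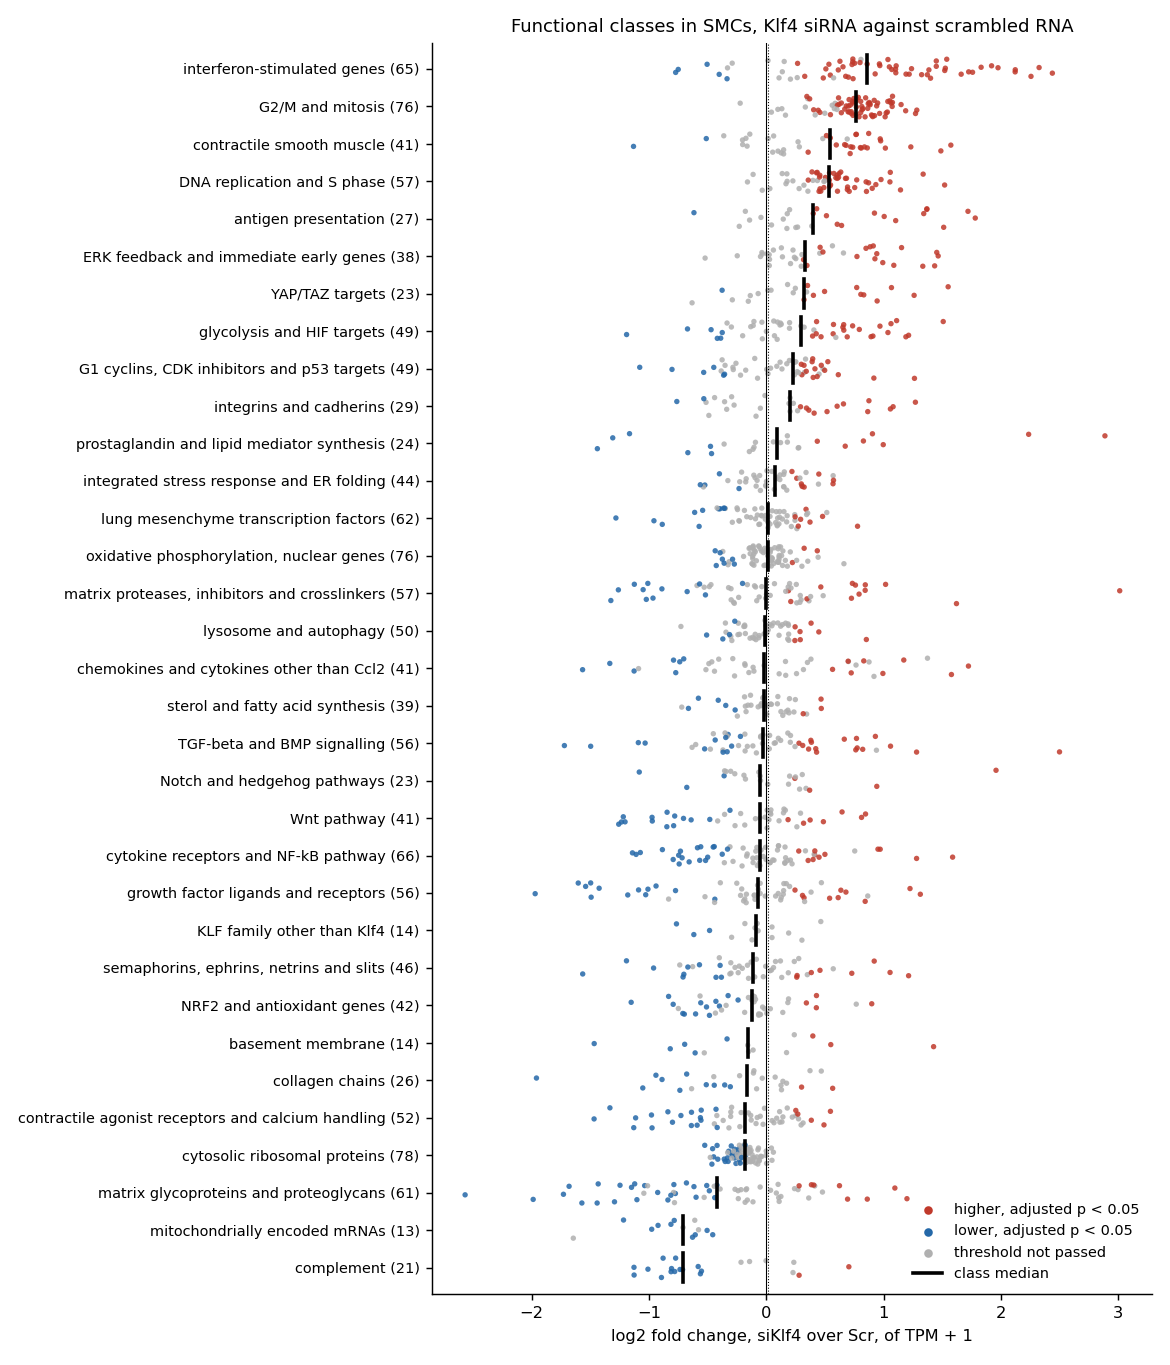
Log2 fold change (siKlf4 over Scr, of TPM + 1) of each tested gene in 33 functional classes in SMCs, with the number tested in brackets. Red points were called higher, blue points lower and grey points neither, black bars mark class medians and the dotted line marks the median of all genes, 0.02; the medians ran from 0.86 for interferon-stimulated genes to -0.71 for complement.

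Contractile smooth muscle genes were more often higher than lower. Of 41 tested, 22 were higher and 2 lower, and their median log2 fold change was 0.55. The lower count was 1 without Scr replicate 2 or siKlf4 replicate 2 and 0 without siKlf4 replicate 3. The summed level of the class was 7381, 8803 and 8763 TPM with Scr against 13888, 13336 and 13307 TPM with siKlf4. Myh11 (chr16:14194535-14291372, minus strand) encodes smooth muscle myosin heavy chain, the late marker of the contractile state. It was at 15.23, 15.99 and 15.71 TPM with Scr and at 61.86, 40.7 and 45.15 TPM with siKlf4. The ratio of means was 3.15 and the log2 fold change 1.57 (SE 0.15, adjusted p = 0.00119, limma), with no overlap between the groups. Acta2, α-smooth muscle actin, went from 1031, 1522 and 1567 TPM to 3072, 2455 and 2691 TPM, a ratio of means of 2.00 (log2 fold change 1.01, SE 0.171, adjusted p = 0.00644, limma). Tpm1, a tropomyosin that gates the actin filament, went from 343.5, 435.4 and 458.7 TPM to 898, 976.7 and 1016 TPM (1.23, SE 0.116, adjusted p = 0.00117, limma). For each of these 3 genes the lowest siKlf4 library lay above the highest Scr library.

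Srf itself, the factor that binds the CArG box, was at 17.08, 25.69 and 25.06 TPM with Scr and at 40.75, 45.64 and 47.52 TPM with siKlf4 (log2 fold change 0.97, SE 0.159, adjusted p = 0.00591, limma). Csrp1, a LIM protein of smooth muscle and cofactor of SRF, also rose, by 0.97. Further genes were called but lost the call when single libraries were left out. Myl9, the regulatory myosin light chain (chr2:156775420-156781658, plus strand), was at 128.3, 327 and 324.2 TPM with Scr and at 598, 675 and 749 TPM with siKlf4. It changed by 1.49 (adjusted p = 0.0192, limma), and that p became 0.0575 without siKlf4 replicate 2 and 0.0625 without siKlf4 replicate 3. Tagln, the actin-binding protein SM22α, had a log2 fold change of 0.81 (adjusted p = 0.0221), which became 0.0517 without Scr replicate 2, 0.0629 without the unnumbered siKlf4 library and 0.0673 without siKlf4 replicate 3. Cnn1, calponin, had a log2 fold change of 0.80 (adjusted p = 0.0186), which became 0.0563 without siKlf4 replicate 2 and 0.0638 without siKlf4 replicate 3. Pgm5, a phosphoglucomutase-like protein of adhesion plaques, was the most strongly lowered member at -1.13 (adjusted p = 0.0218, limma), and it lost the call without siKlf4 replicate 2 or 3 (0.0718 and 0.069).

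**Figure D2:**
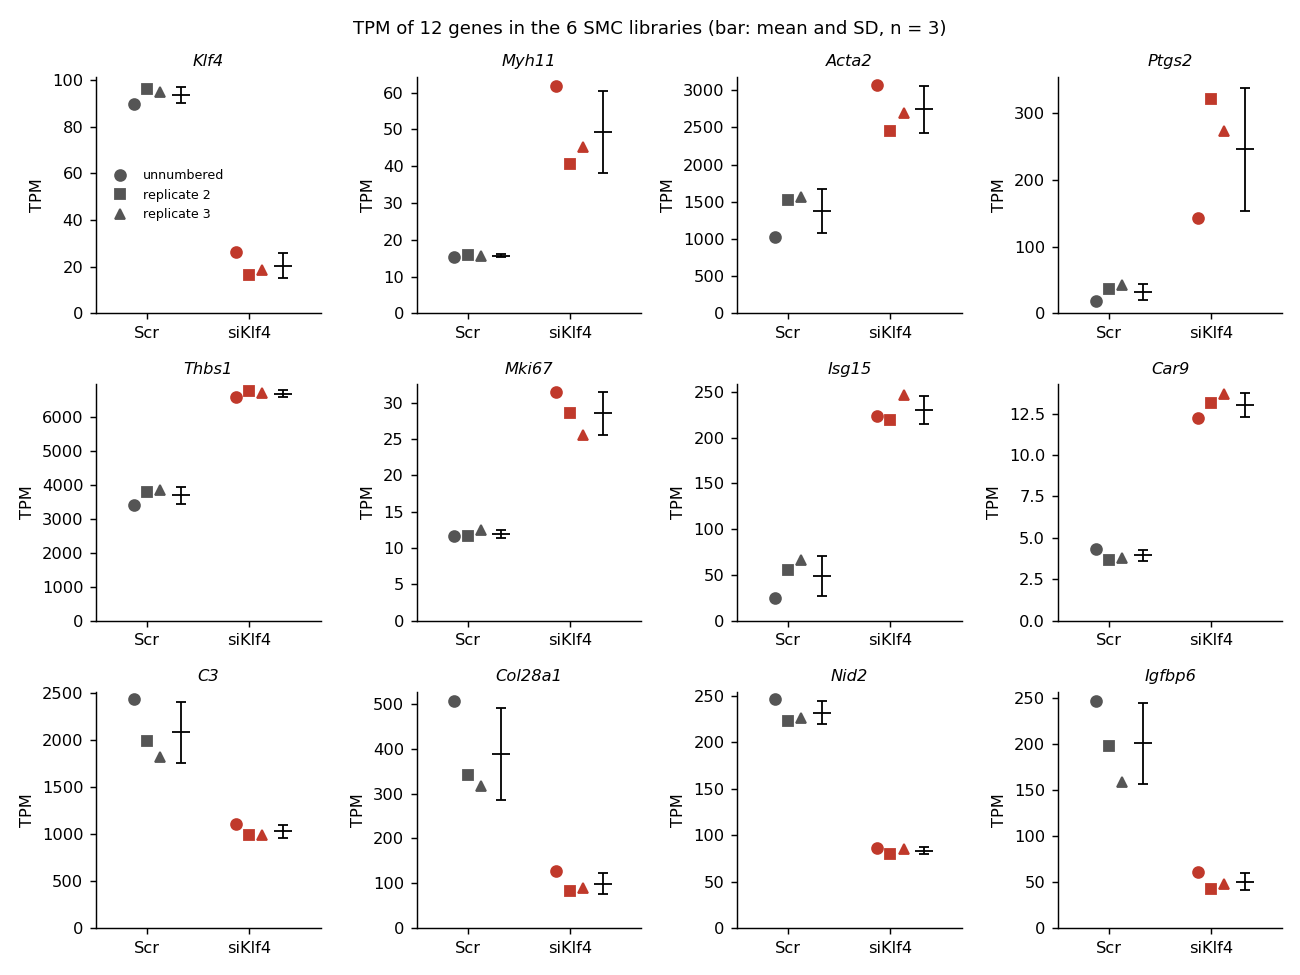
TPM of 12 genes in each of the 6 SMC libraries, Scr in grey and siKlf4 in red, with marker shape for the unnumbered library and replicates 2 and 3 and bars for mean and SD (n = 3 libraries a group). The groups do not overlap for any of the 12 genes; Klf4, C3, Col28a1, Nid2 and Igfbp6 lie lower with siKlf4 and the other 7 lie higher.

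The DNA before the start sites of these genes was searched for CArG boxes. RefSeq promoter windows (build GRCm38.p6) were read over the 250 bases before each start, on both strands. At least 1 CArG box stood in a window of 8 of the 33 contractile genes with a window (24.2%), against 139 of all 9884 tested genes with one (1.41%) and 1.47% of all windows. The stretches around the boxes of Myl9 (chr2:156775273-156775342, plus strand) and Srf (chr17:46556185-46556254, minus strand) are shown because both genes rose and one of them encodes the factor that reads the box; capitals mark the CArG box.
Myl9: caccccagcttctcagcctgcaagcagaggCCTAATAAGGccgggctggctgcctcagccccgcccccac
Srf: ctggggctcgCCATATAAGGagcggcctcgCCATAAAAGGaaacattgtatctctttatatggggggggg

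Receptors for contractile agonists and calcium-handling genes moved the other way from the filaments. Of 52 tested, 17 were lower and 5 higher, with a median log2 fold change of -0.18. The count of lower genes was 11 without the unnumbered Scr library, 8 without Scr replicate 2 and 9 without siKlf4 replicate 2 or 3; that of higher genes was 1 or 2 in each fit that left out a library other than the unnumbered Scr. Tbxa2r, the thromboxane A2 receptor, was at 13.64, 18.71 and 20.76 TPM with Scr and at 5.18, 5.58 and 8.66 TPM with siKlf4 (-1.33, SE 0.215, adjusted p = 0.00571, limma). The groups did not overlap. Avpr1a, a vasopressin receptor, fell by 1.13 on the log2 scale and Agtr1a, an angiotensin II receptor, fell by 1.11. S1pr1, a sphingosine 1-phosphate receptor, fell by 0.98 and Ptgfr, the prostaglandin F receptor, fell by 0.97. Each of these 5 receptors kept its call whichever single library was left out. The muscarinic receptors through which acetylcholine contracts airways, Chrm2 (0.04 to 0.19 TPM) and Chrm3 (0.66 to 1.28 TPM), were below the 1 TPM minimum.

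Matrix genes were more often lower than higher, but not uniformly. Of 26 collagen chains 10 were lower and 2 higher (median -0.17), of 61 matrix glycoproteins and proteoglycans 25 were lower and 8 higher (median -0.42), and of 14 basement membrane genes 5 were lower and 3 higher (median -0.16). The 8 higher glycoprotein genes became 4 without siKlf4 replicate 2 or 3. Summed levels did not follow these counts in each class. Collagen chains summed to 9144, 8856 and 8855 TPM with Scr against 7665, 6887 and 7146 TPM with siKlf4. Glycoproteins and proteoglycans summed to 41428, 41472 and 39607 TPM against 42191, 40653 and 40339 TPM, with overlapping ranges. Basement membrane genes summed to 2303, 2297 and 2278 TPM against 2416, 2614 and 2463 TPM, so that sum was higher. Col28a1, a collagen of basement membranes and peripheral nerve, was at 506.4, 342.2 and 318.1 TPM with Scr and at 126.1, 81.7 and 89.07 TPM with siKlf4 (-1.96, SE 0.217, adjusted p = 0.00183, limma). Col3a1, a main fibrillar collagen of lung, was at 1503, 1300 and 1232 TPM and then 821.3, 551.8 and 593.3 TPM (-1.05, SE 0.156, adjusted p = 0.00432, limma). Neither gene overlapped between groups. Col24a1 fell by 0.94. The higher chains were Col11a1 (0.57) and Col4a2 (0.30). The log2 fold change of Col1a1 was -0.23 (adjusted p = 0.209) and that of Fn1, fibronectin, 0.04 (adjusted p = 0.861, limma), and neither passed the test. By qRT-PCR the paper reported no change of Col1a1, Col3a1 or Fn1 in SMCs, so the fall of Col3a1 here differs from that assay.

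Eln, the elastic fibre protein elastin, was at 6.38, 6.21 and 5.90 TPM with Scr and at 1.93, 1.54 and 1.51 TPM with siKlf4 (-1.43, SE 0.124, adjusted p = 0.001, limma), so the groups were well apart. Prg4, the lubricating proteoglycan lubricin, fell by 1.99, Fmod, the collagen-binding fibromodulin, fell by 1.73, and Tnxb, tenascin X, fell by 1.68. Smoc2, a matricellular calcium-binding protein, fell by 1.57. On the other side stood Thbs1, thrombospondin 1, which can activate latent TGF-β. It was at 3411, 3789 and 3856 TPM with Scr and at 6568, 6768 and 6706 TPM with siKlf4 (0.86, SE 0.0733, adjusted p = 9.7e-04, limma). Tgfbi, a TGF-β induced adhesion protein, rose by 1.10. The basement membrane genes split by name within a pair: Nid2, nidogen 2, went from 246.5, 223 and 226.7 TPM to 85.77, 79.32 and 84.78 TPM (-1.47, SE 0.0689, adjusted p = 4.4e-04, limma). Nid1, nidogen 1, rose by 0.55 (SE 0.0777, adjusted p = 0.00372, limma). Agrn, the heparan sulfate proteoglycan agrin, rose by 1.43, whereas the laminin chain gene Lama2 fell by 0.70 on the log2 scale.

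Matrix proteases, their inhibitors and crosslinkers were called in both directions in near equal number, 13 higher and 12 lower of 57 (median -0.01); the higher count was 7 without Scr replicate 2, siKlf4 replicate 2 or siKlf4 replicate 3. Mmp10, stromelysin 2, was at 4.593, 9.512 and 9.192 TPM with Scr and at 40.53, 100.5 and 73.39 TPM with siKlf4, a ratio of means of 9.20. The tissue inhibitors of metalloproteinases diverged. Timp3, the matrix-bound inhibitor, rose by 1.02 (SE 0.153, adjusted p = 0.00452, limma). Timp2 fell from 1646, 1556 and 1464 TPM to 764.3, 587.3 and 605.6 TPM (-1.26, SE 0.111, adjusted p = 0.001, limma), and Timp1 fell by 0.97. Plau, the plasminogen activator urokinase, rose by 0.76.

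Integrins and cadherins were more often higher, 12 of 29 with 2 lower (median 0.20). The higher count was 7 without siKlf4 replicate 2, and the lower count was 4 without the unnumbered Scr library. Itga5, the α chain of the fibronectin receptor, was at 130.6, 167.7 and 176.2 TPM with Scr and at 400.4, 365 and 374.7 TPM with siKlf4 (1.27, SE 0.117, adjusted p = 0.00104, limma), with no overlap. Alcam, a cell adhesion molecule of the immunoglobulin family, rose by 1.06. Itga7, a laminin-binding chain of muscle, fell by 0.76 and Thy1, a glycoprotein of fibroblasts, fell by 0.53.

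TGF-β and BMP signalling genes were called both ways: 16 of 56 were higher, 12 lower, and the median was -0.03. The counts fell to 7 higher without siKlf4 replicate 2 or 3 and to 9 without Scr replicate 2, and to 4 lower without siKlf4 replicate 2 and 6 without Scr replicate 2 or siKlf4 replicate 3. Among the ligands, Tgfb1 went from 19.77, 27.5 and 26.25 TPM to 40.63, 52.39 and 49.05 TPM (0.93, SE 0.149, adjusted p = 0.00559, limma). This differs from the qRT-PCR of the paper, which reported Tgfb1 as unchanged in SMCs after Klf4 knockdown. Inhba, the activin A subunit, went from 52.48, 63.93 and 71.11 TPM to 137.7, 166.2 and 153.7 TPM (1.28, SE 0.125, adjusted p = 0.00127, limma). Tgfbr1, the type I receptor, rose by 1.06 (SE 0.088, adjusted p = 9.3e-04, limma). Neither ligand overlapped between groups. Tgfb2 had a log2 fold change of -0.63 that did not pass the test (adjusted p = 0.0676, limma). Chrd, the BMP antagonist chordin, was lower, at 11.28, 12.65 and 9.193 TPM with Scr against 2.822, 3.718 and 3.214 TPM with siKlf4 (SE 0.148 on the log2 scale, adjusted p = 0.00129, limma). Gdf10, a ligand of the BMP family, fell by 1.09. Nrep, a small protein linked to TGF-β production, had the largest value of the class, 2.50 (adjusted p = 0.0147), but reached only 0.0512 without siKlf4 replicate 3.

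Targets of YAP and TAZ, the coactivators that respond to cell tension, were more often called higher than lower: 11 of 23, with 1 lower and a median of 0.32. The lower count was 2 without the unnumbered siKlf4 library and 0 without any of the other 5. Their summed level went from 2793, 3295 and 3415 TPM to 4794, 5017 and 5035 TPM. Ankrd1, a muscle ankyrin repeat protein, was at 20.21, 24.79 and 28 TPM with Scr and at 68.04, 72.72 and 77.05 TPM with siKlf4 (1.55, SE 0.123, adjusted p = 8.2e-04, limma). Ctgf, connective tissue growth factor, went from 337, 636.5 and 689.4 TPM to 1197, 1274 and 1333 TPM (1.26, SE 0.252, adjusted p = 0.0116, limma). The lowest siKlf4 library of each gene lay above the highest Scr library. Cyr61, the near relative of Ctgf, rose by 0.83 and Ajuba, a LIM protein that restrains the Hippo kinases, rose by 1.07.

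Genes of mitosis and of DNA replication shifted upward with few exceptions. Of 76 G2/M and mitotic genes 63 were higher and none lower, with a median of 0.76, and their summed level went from 944.4, 1006 and 1093 TPM to 1700, 1713 and 1601 TPM. Of 57 genes of DNA replication and S phase 41 were higher and none lower, with a median of 0.54, and their sum went from 834.6, 831 and 842.5 TPM to 1182, 1204 and 1133 TPM. By limma at an unadjusted p under 0.05, 1 G2/M gene and 0 S phase genes were lower. The G2/M lower count was 1 without the unnumbered siKlf4 library and with the numbered libraries alone. The S phase higher count was 25 without siKlf4 replicate 2. With the 4 numbered libraries and replicate number as a block, 38 G2/M and 24 S phase genes were higher. Mki67 (chr7:135689784-135716361, minus strand), which encodes the proliferation antigen Ki-67, was at 11.6, 11.69 and 12.5 TPM with Scr and at 31.48, 28.57 and 25.54 TPM with siKlf4 (1.19, SE 0.0989, adjusted p = 9.3e-04, limma). Plk1, the mitotic polo-like kinase, went from 7.539, 11.38 and 12.01 TPM to 24.55, 25.81 and 27.85 TPM (1.28, SE 0.166, adjusted p = 0.00294, limma). Mcm5, a subunit of the replicative helicase, went from 5.66, 7.34 and 7.91 TPM to 20.78, 23.5 and 20.82 TPM (1.52, SE 0.131, adjusted p = 0.001, limma). None of these 3 genes overlapped between groups.

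Other mitotic genes rose by similar amounts, among them Birc5 (survivin) by 1.27, the spindle checkpoint kinase Bub1 by 1.15 and the cyclin Ccna2 by 1.07. Cdc20, the activator of the anaphase-promoting complex, rose by 0.94 and Ccnb1, cyclin B1, by 0.85. Cdk1, at a log2 fold change of 0.59, did not pass the test (adjusted p = 0.0625, limma). In S phase, Ccne2, a cyclin of the G1/S step, rose by 1.34, Uhrf1, which maintains DNA methylation at the fork, by 1.14 and thymidine kinase Tk1 by 1.06. G1 cyclins, CDK inhibitors and p53 targets were more mixed, with 15 of 49 higher, 6 lower and a median of 0.23. The higher count was 8 without Scr replicate 2 and 7 without siKlf4 replicate 2 or 3, and the lower count was 2 or 3 in each fit that left out a library other than the unnumbered siKlf4. Cdkn1a, the p21 inhibitor and a known KLF4 target, rose by 0.40 (SE 0.0669, adjusted p = 0.00658, limma), and Plk2, a p53 target, rose by 1.26. Sesn1, sestrin 1, fell by 1.08 and Cdkn2b, the p15 inhibitor, fell by 0.53.

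Mitotic promoters often carry a cell cycle homology region (CHR), searched here as TTTGAA on both strands. It stood in a window of 24 of 64 G2/M genes (37.5%), against 1256 of all tested genes (12.7%) and 16% of all windows. Among all called genes it stood in 12.7% of higher and 13.1% of lower genes. Among those changed by at least 1 on the log2 scale the shares were 19.6% and 13.1%. In the other classes with windows the share ran from 0% (0 of 25 Wnt genes) to 33.3% (4 of 12 complement genes). It was 26.9% (14 of 52) for interferon-stimulated genes, so the letters were not particular to mitotic genes. The stretches of Mki67 (chr7:135716442-135716507, minus strand) and Cdc20 (chr4:118437344-118437391, minus strand) are printed as members that rose; capitals mark TTTGAA.
Mki67: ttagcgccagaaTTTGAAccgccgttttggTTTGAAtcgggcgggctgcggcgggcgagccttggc
Cdc20: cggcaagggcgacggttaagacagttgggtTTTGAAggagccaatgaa

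Interferon-stimulated genes, which encode antiviral effectors and the sensors and factors that induce them, showed the highest class median. Of 65 tested, 50 were higher and 5 lower with a median of 0.86, and 29 rose by at least 1 on the log2 scale. The 5 lower genes became 2 or 3 in each fit that left out a library other than the unnumbered Scr. The class summed to 6311, 7030 and 7104 TPM with Scr, against 8938, 8682 and 9095 TPM with siKlf4. Isg15 (chr4:156199424-156200818, minus strand), a ubiquitin-like modifier, was at 24.51, 55.83 and 66.69 TPM with Scr and at 223.9, 219.5 and 247.2 TPM with siKlf4 (2.32, SE 0.332, adjusted p = 0.0038, limma). Usp18, the protease that removes ISG15 and dampens the receptor, went from 12.55, 20.25 and 24.75 TPM to 89.08, 92.38 and 94.96 TPM (2.26, SE 0.216, adjusted p = 0.00119, limma). Ifi44 went from 10.38, 17.07 and 19.54 TPM to 97.16, 77.23 and 86.41 TPM (2.44, SE 0.216, adjusted p = 0.001, limma). In all 3 genes the unnumbered Scr library was the lowest and the groups did not overlap. Ifit1, an RNA-binding effector of a family of similar genes, rose by 1.83 and Bst2, tetherin, by 1.76. Cxcl10, an interferon-inducible chemokine, rose by 1.58.

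Antigen presentation genes followed, with 14 of 27 higher, 1 lower and a median of 0.40; 8 rose by at least 1. The lower count was 0 without Scr replicate 2 or siKlf4 replicate 2. B2m, the invariant chain of MHC class I, went from 1077, 1554 and 1579 TPM to 2666, 2682 and 2986 TPM (1.00, SE 0.151, adjusted p = 0.00453, limma), without overlap. The classical heavy chains H2-K1 and H2-D1 rose by 1.10 and 1.34, and Nlrc5, the class I transactivator, rose by 1.37. H2-Q4 and H2-Q7, non-classical chains, rose by 1.78 and 1.72, but reads of these near-identical genes could be split by the counting, so values for single H2 genes are uncertain. H2-Ab1, an MHC class II chain, rose by 1.51.

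The interferon-stimulated response element (ISRE) was searched on both strands as a pair of GAAA units with 2 bases of any kind between them. It stood in a window of 24 of 52 interferon-stimulated genes (46.2%), against 320 of all tested genes (3.24%) and 2.98% of all windows. The stretches of Isg15 (chr4:156200845-156200914, minus strand) and Ifit1 (chr19:34640774-34640843, plus strand) are printed because the class turns on such members. Capitals mark matches of the element that do not overlap, read on the opposite strand in Ifit1. In Isg15 the GAAA units on either side of the small cc form a further match that overlaps both marked ones.
Isg15: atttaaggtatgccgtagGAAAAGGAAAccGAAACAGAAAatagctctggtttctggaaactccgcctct
Ifit1: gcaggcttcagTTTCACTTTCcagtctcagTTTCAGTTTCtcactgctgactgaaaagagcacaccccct

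Complement genes were lower while interferon genes were higher, so the innate immune classes did not move together. Of 21 tested, 14 were lower and 2 higher (1 without Scr replicate 3 or any of the siKlf4 libraries), with a median of -0.71, and the class sum went from 7100, 6224 and 5845 TPM to 3875, 3467 and 3380 TPM. C3 (chr17:57203970-57228136, minus strand), the central component, was at 2444, 1988 and 1821 TPM with Scr and at 1105, 989.4 and 991.4 TPM with siKlf4 (-1.01, SE 0.116, adjusted p = 0.00199, limma). The classical pathway proteases C1s1 and C1ra each fell by 1.13 on the log2 scale. Masp1, a lectin pathway protease, rose by 0.70. Beyond the class, 2 genes of the acute phase response were among the largest falls. Hp, the haemoglobin scavenger haptoglobin (chr8:109575128-109579172, minus strand), was at 539.7, 398.8 and 342.3 TPM and then at 93.54, 86.57 and 84.11 TPM (-2.24, SE 0.158, adjusted p = 7.0e-04, limma). Serpina3m, a serine protease inhibitor of a multigene cluster whose reads could be shared, was at 313.3, 208.6 and 174.7 TPM and then at 67.9, 33.42 and 36.63 TPM (-2.34, SE 0.306, adjusted p = 0.00299, limma). For C3, Hp and Serpina3m the unnumbered library was the highest of each group, and the groups did not overlap.

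Chemokines and cytokines other than Ccl2 showed no common direction: 8 of 41 were higher, 7 lower, and the median was -0.02. The higher count was 5 without the unnumbered Scr library or siKlf4 replicate 3 and 4 without Scr replicate 2 or siKlf4 replicate 2, and the lower count was 4 without Scr replicate 2, siKlf4 replicate 2 or siKlf4 replicate 3. Csf1, the macrophage growth factor M-CSF, was at 537.4, 618.2 and 637.8 TPM with Scr and at 917.6, 1041 and 946.8 TPM with siKlf4 (0.70, SE 0.0877, adjusted p = 0.00269, limma). Tnfsf11, which encodes RANKL, fell by 1.33 (SE 0.182, adjusted p = 0.00329, limma). The log2 fold changes of Il6 (-0.15, adjusted p = 0.817), Il33 (-0.44, adjusted p = 0.293) and Cxcl12 (-0.02, adjusted p = 0.852) did not pass limma's test, and Il1b was listed at 0 in all 6 libraries.

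Cytokine receptors and the NF-κB pathway had 19 of 66 lower and 11 higher (median -0.06); the higher count was 5 to 7 in each fit that left out a library other than the unnumbered siKlf4. Tnfrsf12a, the TWEAK receptor, rose by 1.59 and Irak2, a kinase of interleukin-1 and Toll-like receptors, by 1.28. Irak3, which inhibits that same step, fell by 1.11, Il17ra by 1.07 and Tnfaip2 by 1.14 on the log2 scale. Nfkb1, the p105 and p50 subunit, had a log2 fold change of 0.21 (adjusted p = 0.209, limma). Prostaglandin and lipid mediator genes were called 7 higher and 6 lower of 24 (median 0.09), and within the prostanoid pathway the enzymes diverged. Ptgs2 (chr1:150100031-150108227, plus strand), the inducible cyclooxygenase, was at 18.52, 36.57 and 41.98 TPM with Scr and at 142.5, 321 and 273.7 TPM with siKlf4 (2.88, SE 0.38, adjusted p = 0.00303, limma). Ptgis, prostacyclin synthase, was at 239.8, 280.7 and 264.2 TPM and then at 103, 89.27 and 95 TPM (-1.44, SE 0.0855, adjusted p = 4.4e-04, limma). Slco2a1, which carries prostaglandins into cells, fell by 1.31, and Plpp3, a lipid phosphatase that degrades lysophosphatidic acid, fell by 1.17.

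Growth factor ligands, receptors and binding proteins had 10 of 56 higher and 13 lower (median -0.08), and the lower end was led by proteins that bind insulin-like growth factors. Igfbp6 was at 246.7, 197.4 and 158.3 TPM with Scr and at 60.48, 42.27 and 47.96 TPM with siKlf4 (-1.97, SE 0.186, adjusted p = 0.00117, limma). Igfbp5 fell by 1.54, Igfbp4 by 1.49 and Igfbp3 by 1.18 on the log2 scale, while their ligand gene Igf1 rose by 0.84. Angpt4, an angiopoietin, fell by 1.60. Hbegf, a ligand of the EGF receptor, rose by 1.31 and Kdr, a VEGF receptor, by 1.22. Pdgfb was below the 1 TPM minimum (0.05 to 0.67 TPM), and its receptor gene Pdgfrb had a log2 fold change of -0.21 that did not pass the test (adjusted p = 0.0566, limma).

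ERK feedback and immediate early genes were called in 1 direction, with 17 of 38 higher, none lower (0 also at an unadjusted p under 0.05) and a median of 0.33. The lower count was 1 without the unnumbered Scr library. It was also 1 with the numbered libraries alone, with or without a replicate block, and with a term for the naming of the columns. Dusp5, a nuclear ERK phosphatase, was at 4.99, 6.52 and 6.72 TPM with Scr and at 16.75, 19.44 and 17.88 TPM with siKlf4 (1.43, SE 0.128, adjusted p = 0.001, limma). The related phosphatases Dusp6 and Dusp4 rose by 1.46 and 1.33, and the feedback inhibitor Spry4 by 0.91. The immediate early factors Egr1 and Nr4a1 rose by 0.94 and 1.15. Wnt pathway genes were more often lower, 14 of 41 with 7 higher (median -0.06). The lower count was 9 without siKlf4 replicate 2 or 3, and the higher count was 2 to 4 whichever library was left out. Wnt11, a ligand of β-catenin-independent signalling, fell by 1.26 and Ror1, a Wnt5a receptor, by 1.24. Rspo2, an enhancer of Wnt signalling, rose by 0.85 and the receptor gene Fzd5 by 0.65.

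Notch and hedgehog genes had 4 of 23 higher and 3 lower (median -0.05). The higher count was 2 without Scr replicate 2 or 3 or siKlf4 replicate 2, and the lower count was 1 without Scr replicate 2 or siKlf4 replicate 3. Hes1, the repressor induced by Notch, was low with Scr, at 0.783, 1.52 and 1.83 TPM, and reached 7.70, 8.66 and 7.83 TPM with siKlf4 (1.96, SE 0.188, adjusted p = 0.0012, limma). Boc, a hedgehog coreceptor, fell by 1.08. Semaphorins, ephrins, netrins and slits had 8 of 46 higher and 10 lower (median -0.11). Their higher count was 5 without Scr replicate 2 and 4 without siKlf4 replicate 2 or 3, and the lower count was 6 in those 3 fits. The ephrin receptor gene Epha4 rose by 1.21 and the ligand gene Efnb2 by 1.05, whereas Sema6d fell by 1.57, Sema3b by 1.19 and Slit3 by 0.96 on the log2 scale.

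Glycolytic genes and targets of hypoxia-inducible factor (HIF) were higher in 21 of 49 cases and lower in 6 (median 0.29), and their sum went from 10911, 12242 and 11921 TPM to 15587, 16092 and 16236 TPM. Car9, the HIF-induced carbonic anhydrase, was at 4.34, 3.69 and 3.78 TPM with Scr and at 12.22, 13.17 and 13.67 TPM with siKlf4 (1.51, SE 0.105, adjusted p = 6.9e-04, limma). Slc2a1, the glucose transporter GLUT1, went from 80.35, 110.9 and 106.2 TPM to 211.8, 178.5 and 231.8 TPM (1.06, SE 0.146, adjusted p = 0.00339, limma). Both genes were without overlap. Ero1l, an oxidase of the endoplasmic reticulum, rose by 1.21, the phosphofructokinase gene Pfkp by 1.19 and the lactate exporter Slc16a3 by 1.11. Ldha, lactate dehydrogenase A, rose by 0.65. The HIF α subunits went in opposite directions: Hif1a rose by 0.39 (SE 0.0608, adjusted p = 0.00495, limma), and Epas1, which encodes HIF-2α, fell by 1.19 (SE 0.16, adjusted p = 0.00315, limma). The pyruvate dehydrogenase kinase gene Pdk2 fell by 0.67.

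The core of the hypoxia response element (HRE), ACGTG, which also lies inside the E-box CACGTG, was searched on both strands. It stood in a window of 24 of 43 glycolysis and HIF genes (55.8%), against 2472 of all tested genes (25%) and 16.6% of all windows. In the other classes with windows the share ran from 3.57% (1 of 28 chemokine and cytokine genes) to 41% (16 of 39 lysosome and autophagy genes). It was 40% (14 of 35) for G1 and p53 genes. The stretches of Slc2a1 (chr4:119108679-119108743, plus strand) and Ldha (chr7:46845740-46845803, plus strand) are printed as higher members of the pathway; capitals mark the core on either strand, with matches that overlap forming the E-box in Ldha.
Slc2a1: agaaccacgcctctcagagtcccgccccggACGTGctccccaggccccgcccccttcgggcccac
Ldha: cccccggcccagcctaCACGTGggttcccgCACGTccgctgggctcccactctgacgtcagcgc

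Respiratory chain mRNAs split by genome. Of 13 mitochondrially encoded mRNAs 9 were lower and none higher (0 also at an unadjusted p under 0.05, with a median of -0.71), whereas of 76 nuclear genes of oxidative phosphorylation 7 were lower and 3 higher (median 0.01). The mitochondrial count was 4 without siKlf4 replicate 3, and the nuclear lower count was also 4 in that fit. The nuclear higher count was 1 without the unnumbered Scr library or siKlf4 replicate 2. Mitochondrial transcripts took 3.62% to 4.38% of all TPM with Scr and 2.34% to 2.76% with siKlf4. mt-Nd5, a complex I subunit, was at 5035, 3867 and 3670 TPM and then at 2298, 2195 and 1856 TPM (-0.98, SE 0.139, adjusted p = 0.00379, limma). mt-Co1, a complex IV subunit, was at 14639, 12293 and 12718 TPM and then at 8059, 9453 and 8114 TPM (-0.63, SE 0.103, adjusted p = 0.00598, limma). Both were without overlap, with the unnumbered Scr library highest. mt-Atp6, which overlaps its neighbour mt-Atp8, was at 29.71 TPM in Scr replicate 3 and below 0.01 TPM in the other 5 libraries, so its level is uncertain.

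Cytosolic ribosomal protein mRNAs were lower by a small amount, with 25 of 78 lower, none higher (0 also at an unadjusted p under 0.05) and a median of -0.19. Their sum was 81918, 82079 and 80507 TPM with Scr against 71469, 70428 and 70277 TPM with siKlf4. The number lower depended strongly on single libraries, at 12 without Scr replicate 2, 16 without Scr replicate 3 and 6 without siKlf4 replicate 2 or 3. It was 20 without the unnumbered siKlf4 library and 29 without the unnumbered Scr library. The median stayed between -0.19 and -0.17 in these fits. With the numbered libraries alone 38 were lower, and with a term for the naming of the columns 49. Rpl17 and Rpl10a each fell by 0.46, and ribosomal protein genes have many processed pseudogenes with which they could share reads. Genes of the NRF2 and antioxidant class had 13 of 42 lower and 4 higher (median -0.12). Sod3, extracellular superoxide dismutase, fell by 1.15, Gstm2, a glutathione transferase, by 0.83 and Aldh1a1 by 0.79 on the log2 scale. Fth1, ferritin heavy chain and one of the most abundant mRNAs here, fell by 0.51. Txnrd1, thioredoxin reductase, rose by 0.43, and the value for Hmox1 was -0.12 (adjusted p = 0.392, limma).

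Sterol and fatty acid synthesis had 3 of 39 higher and 5 lower (median -0.02); the lower count was 2 without Scr replicate 2 or 3 or without siKlf4 replicate 2 or 3. Hmgcs1, an early enzyme of the sterol pathway, rose by 0.47 and Acss2, an acetyl-CoA synthetase, fell by 0.66. The integrated stress response and folding in the endoplasmic reticulum had 8 of 44 higher and 4 lower (median 0.08), and the higher count was 2 to 5 without Scr replicate 2 or 3, the unnumbered siKlf4 library, or siKlf4 replicate 2 or 3. The lower count was 1 without siKlf4 replicate 2 and 2 without Scr replicate 2, Scr replicate 3 or siKlf4 replicate 3. Edem1, which targets misfolded proteins for degradation, rose by 0.57 and Pck2 fell by 0.56. Lysosome and autophagy genes had 7 of 50 higher and 4 lower (median -0.01), the higher count being 3 without siKlf4 replicate 3 and 4 without Scr replicate 3, the unnumbered siKlf4 library or siKlf4 replicate 2. The galactosidase gene Gla rose by 0.85, Grn, progranulin, by 0.45, and Scarb2 fell by 0.51. All 3 classes were called at less than the background share.

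Transcription factors of lung mesenchyme were also called near the background, with 7 of 62 higher and 10 lower (median 0.02). The higher count was 2 to 4 whichever library was left out, and the lower count was 4 without Scr replicate 2 or siKlf4 replicate 2 and 5 without siKlf4 replicate 3. Tcf21, a factor of lung fibroblasts, fell by 1.28 and Osr2 by 0.96 on the log2 scale, while the forkhead gene Foxs1 rose by 0.78 and Tead4, a partner of YAP, by 0.48. Among 14 other members of the KLF family, 3 were lower and none higher (median -0.09). Klf15 fell by 0.77 (SE 0.144, adjusted p = 0.0093, limma). Klf2 (-0.62, adjusted p = 0.0247) and Klf9 (-0.48, adjusted p = 0.0344) were called by limma but were not stable. Without Scr replicate 2, Scr replicate 3, siKlf4 replicate 2 and siKlf4 replicate 3, the adjusted p of Klf2 was 0.0808, 0.0679, 0.064 and 0.0671. Without the unnumbered Scr library, Scr replicate 2, siKlf4 replicate 2 and siKlf4 replicate 3, that of Klf9 was 0.0768, 0.0787, 0.109 and 0.104. At an unadjusted p under 0.05, 2 family members were higher. Klf5, which has opposing actions to Klf4 in several tissues, had a log2 fold change of -0.07 (adjusted p = 0.802, limma).

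Some of the largest changes fell outside every class. Prl3a1, a placental prolactin-like hormone gene (chr13:27259436-27276667, plus strand), was at 4.21, 7.28 and 11.25 TPM with Scr and at 28.54, 50.9 and 58.22 TPM with siKlf4 (2.48, SE 0.36, adjusted p = 0.00405, limma). Prl8a9, of the same cluster, went from 1.39, 3.32 and 2.49 TPM to 9.42, 21.23 and 14.91 TPM (2.23, SE 0.317, adjusted p = 0.00377, limma). Both belong to a family of similar genes among which reads could be split. Krt19, a keratin of simple epithelium and mesothelium, went from 4.06, 3.21 and 3.58 TPM to 15.2, 24.62 and 20.09 TPM (2.16, SE 0.177, adjusted p = 9.0e-04, limma). It was the sole mesothelial marker that rose, and Krt8 and Krt14 were at 0. Serpinb1a, an inhibitor of neutrophil proteases, went from 40.82, 42.25 and 41.69 TPM to 10.92, 6.592 and 9.504 TPM (-2.12, SE 0.162, adjusted p = 8.1e-04, limma). Gngt2, a G protein γ subunit, fell by 2.20, the secreted olfactomedin-like gene Olfml1 by 2.13 and the glycosyltransferase gene Galnt15 by 2.08 on the log2 scale.

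To ask which of these changes differed from those in PDGFR-β+ cells, the difference between the SMC and the PDGFR-β+ fold change was tested for each gene by limma's interaction term over the 12 libraries. In PDGFR-β+ cells alone 40.6% of 13694 genes were called, 25.3% higher and 15.3% lower, with a median log2 fold change of 0.10, and Klf4 fell further there (-3.35) than in SMCs (difference 1.19, adjusted p = 6.9e-04, limma). The difference passed for 33% of 13032 genes, 1886 (14.5%) with a higher and 2411 (18.5%) with a lower fold change in SMCs. After median-ratio scaling these were 2510 and 1910, so the direction of the overall split depends on the scaling. The cells also differ in source and culture, and these cannot be told apart from cell type. Nor can animal age, which is not given for the SMCs, or the transfection reagent and siRNA supplier, which are not given by cell type. The same holds for the tamoxifen and the reporter genotype of the mice that gave the PDGFR-β+ cells.

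**Figure D3:**
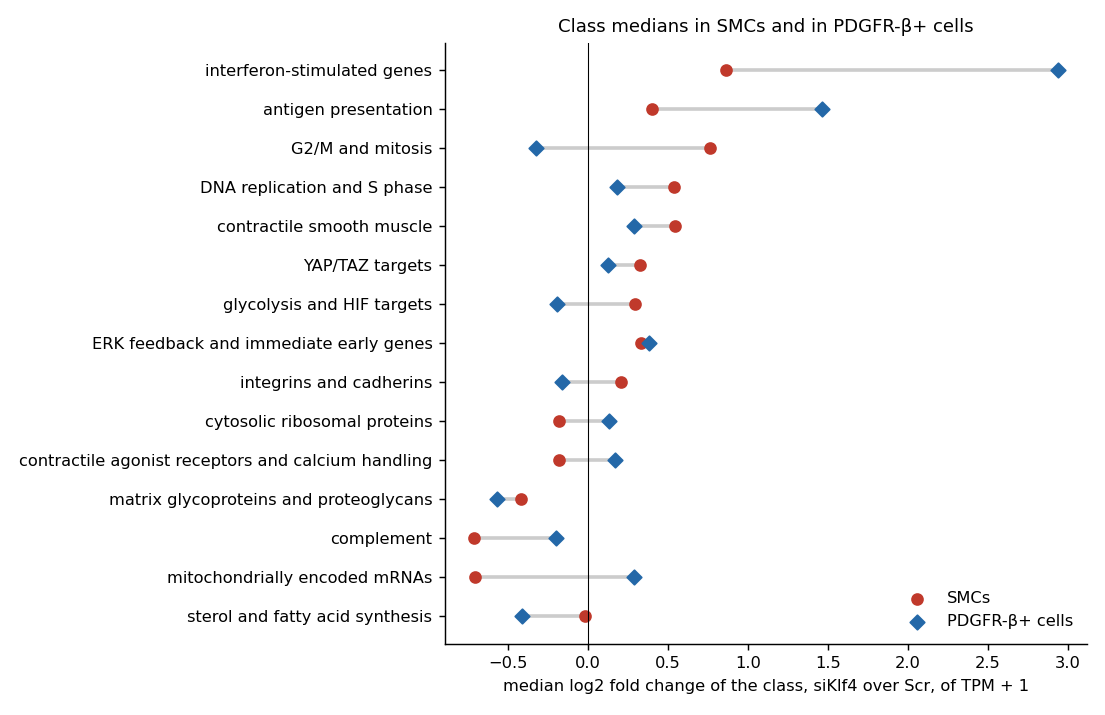
Median log2 fold change (siKlf4 over Scr, of TPM + 1) of 15 functional classes in SMCs (red circles) and PDGFR-β+ cells (blue diamonds). The medians lie on opposite sides of 0 for G2/M genes (0.76 and -0.33), glycolysis and HIF targets (0.29 and -0.20) and mitochondrially encoded mRNAs (-0.71 and 0.29). They also do so for ribosomal proteins (-0.19 and 0.13), agonist receptors and calcium handling (-0.18 and 0.17) and integrins and cadherins (0.20 and -0.17). They lie on the same side for the other classes shown, among them interferon-stimulated genes (0.86 and 2.94).

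Mitotic genes parted the cell types with few exceptions. In PDGFR-β+ cells 3 of 76 G2/M genes were higher and 27 lower (median -0.33), and the difference was higher in SMCs for 66 genes and lower for 2, or 68 and 2 after median-ratio scaling. Mki67 had a log2 fold change of -0.62 in PDGFR-β+ cells, and its difference of 1.81 passed the test (adjusted p = 3.7e-05, limma). S phase genes were more often higher than lower in PDGFR-β+ cells too, 17 and 2 of 58 (median 0.18). For these genes the difference was higher in SMCs for 17 and lower for 4, or 21 and 2 after median-ratio scaling. Glycolysis and HIF targets were called 8 higher and 16 lower of 48 in PDGFR-β+ cells, and the difference was higher in SMCs for 20 and lower for 5. Contractile genes were called 16 higher and 5 lower of 39 in PDGFR-β+ cells (median 0.29), and the difference was higher in SMCs for 16 and lower for 5. Acta2 was lower in PDGFR-β+ cells (-0.29), whereas Myh11 was higher in both (0.66 in PDGFR-β+ cells), and the difference passed for each, at 1.30 (adjusted p = 6.0e-04) and 0.91 (adjusted p = 0.00385, limma). For Srf the difference of 0.27 did not pass (adjusted p = 0.385, limma).

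Interferon-stimulated genes rose in both cell types but by far more in PDGFR-β+ cells, where 63 of 66 were higher and 1 lower (median 2.94). Of 64 members tested for the difference, 59 had a lower fold change in SMCs and 1 a higher one, under both scalings. Ifit1 had a log2 fold change of 4.93 in PDGFR-β+ cells (difference -3.10, adjusted p = 6.2e-04, limma). Antigen presentation differed alike, with 16 lower and 4 higher in SMCs, and H2-Ab1 was an exception at a difference of 1.80 (adjusted p = 9.7e-04, limma). Mitochondrial mRNAs had lower fold changes in SMCs for 10 of 13, or 8 after median-ratio scaling. Ribosomal protein genes were lower in SMCs for 38 of 78 (22 after median-ratio scaling). Agonist receptors and calcium genes were lower in SMCs for 16 and higher for 3, as for Avpr1a (difference -1.48, adjusted p = 0.00737, limma).

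**Figure D4:**
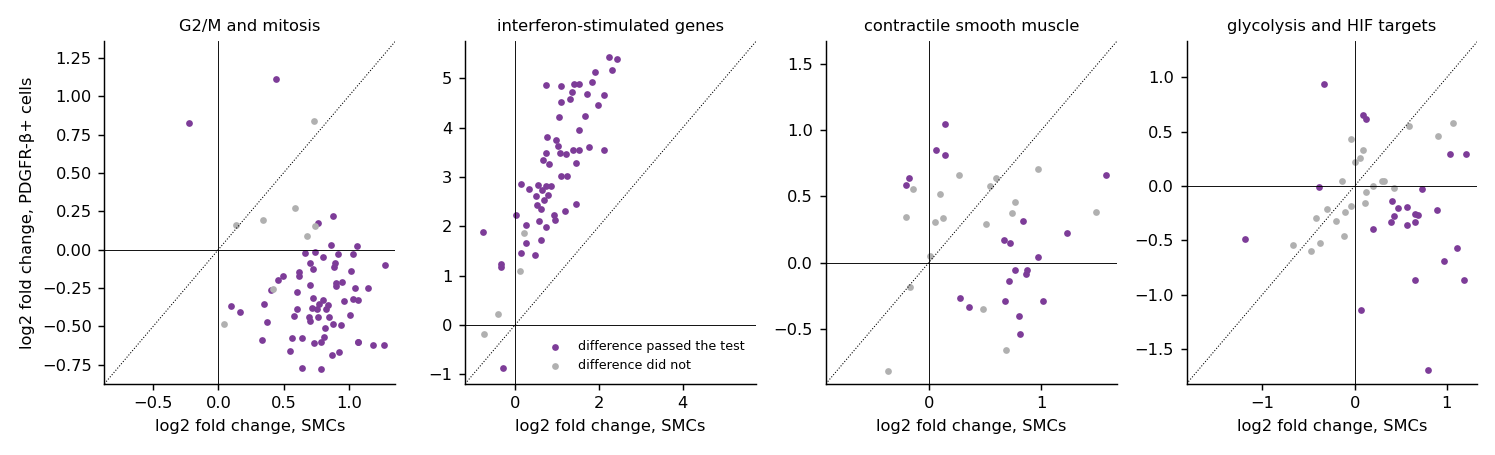
Log2 fold change of each gene of 4 classes in SMCs (x axis) against PDGFR-β+ cells (y axis), with equal change on the dotted line and purple for genes whose difference passed limma's test. Most G2/M genes lie right of 0 and below it (66 of 76 with a higher change in SMCs), and most interferon-stimulated genes lie above the dotted line (59 of 64 with a lower change in SMCs).

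Matrix glycoproteins were more often called lower than higher in both cell types, with 28 of 56 lower and 9 higher in PDGFR-β+ cells (median -0.57), and Prg4 (difference 0.09, adjusted p = 0.857) and Smoc2 (-0.01, adjusted p = 0.984) gave no difference that passed limma's test. Eln behaved in the same way, at -1.58 in PDGFR-β+ cells (difference 0.15, adjusted p = 0.577). Other matrix and TGF-β genes went in opposite directions. Thbs1 was at -1.26 in PDGFR-β+ cells (difference 2.12, adjusted p = 4.9e-06, limma), Nid1 at -1.02 (1.57, adjusted p = 2.2e-06) and Timp3 at -1.63 (2.65, adjusted p = 7.5e-06). Tgfb1 was at -0.85 (difference 1.78, adjusted p = 2.5e-05, limma) and Inhba at -1.32 (2.60, adjusted p = 1.6e-06). Complement genes were called 2 higher and 3 lower of 21 in PDGFR-β+ cells (median -0.21), and the difference passed for 6 lower and 2 higher in SMCs, or 5 and 4 after median-ratio scaling. Higher calls numbered 1 to 4 when single libraries were left out, reaching 4 without PDGFR-β+ siKlf4 replicate 1. C3 was lower in both (-1.76 in PDGFR-β+ cells), and its difference of 0.75 did not pass (adjusted p = 0.0976, limma). Over all genes, 1833 were called in both cell types and 553 of them in opposite directions.

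The remaining classes were compared by the same test, as counts with a higher and with a lower fold change in SMCs. More genes were higher in SMCs among sterol and fatty acid synthesis (14 and 1), the integrated stress response (15 and 4), lysosome and autophagy (16 and 5), proteases and inhibitors (20 and 7), matrix glycoproteins (14 and 6), integrins and cadherins (11 and 6), TGF-β and BMP signalling (11 and 7), YAP/TAZ targets (8 and 5), ERK feedback and immediate early genes (9 and 5) and prostaglandin synthesis (5 and 2). More were lower in SMCs among lung mesenchyme transcription factors (4 and 22), NRF2 and antioxidant genes (5 and 17), cytokine receptors and NF-κB (10 and 17), semaphorins and their relatives (3 and 14), Wnt genes (4 and 13), G1 and p53 genes (6 and 13), chemokines and cytokines (5 and 12), Notch and hedgehog (2 and 12) and other KLF genes (1 and 6). Growth factors (10 and 9), collagens (5 and 5), basement membrane genes (5 and 5) and nuclear oxidative phosphorylation (3 and 5) were close to even; after median-ratio scaling collagens were 7 and 2 and nuclear oxidative phosphorylation genes 7 and 3. Under that scaling the Wnt genes were 5 and 8, ERK feedback genes 9 and 2, lysosome and autophagy 20 and 2, prostaglandin synthesis 7 and 1, sterol synthesis 16 and 0, chemokines and cytokines 8 and 11, semaphorins and their relatives 5 and 14, lung transcription factors 7 and 19 and other KLF genes 2 and 5. Leaving out single libraries moved some counts by over 1.5 times. The Wnt lower count was 8 without Scr replicate 2 or siKlf4 replicate 3 of the SMCs, 7 without their siKlf4 replicate 2 and 6 without PDGFR-β+ siKlf4 replicate 1. Over the 12 such fits the lower count was 2 to 6 for ERK feedback genes, 2 to 5 for lysosome and autophagy, 1 to 3 for prostaglandin synthesis, 0 to 2 for sterol synthesis, 3 to 6 for integrins and cadherins and 2 to 5 for collagens and S phase genes. Higher counts were 4 to 8 for chemokines and cytokines, 3 to 5 for basement membrane genes, 1 to 3 for semaphorins and their relatives, 2 to 4 for Wnt genes, 1 to 2 for other KLF genes and 1 to 8 for nuclear oxidative phosphorylation, whose lower count was 3 to 8. Hes1 (-0.59 in PDGFR-β+ cells, difference 2.55, adjusted p = 2.3e-05) and Tnfsf11 (1.94, difference -3.27, adjusted p = 3.4e-06) were among the genes with opposite changes by limma.

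A KLF-type motif, searched as GGGTGTGG or GGGCGTGG on both strands, was examined in the higher and the lower genes. It stood in a window of 251 of 1668 higher genes (15%) and 181 of 1291 lower genes (14%), against 1369 of all 9884 tested genes (13.9%) and 7.72% of all windows. Among genes changed by at least 1 on the log2 scale, it stood in 20 of 153 higher (13.1%) and in 26 of 198 lower (13.1%). The class shares given above for the other motifs cover all tested members, called or not. Over all higher and all lower genes, the CArG box stood in 2.34% and 1.39%. For the ISRE these shares were 5.1% and 2.87%, and for the HRE 26.4% and 20.2%. The motifs rarely overlapped one another, in at most 6 windows for any pair. A match is a description of letters in these windows and not evidence that a factor was bound.

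**Figure D5:**
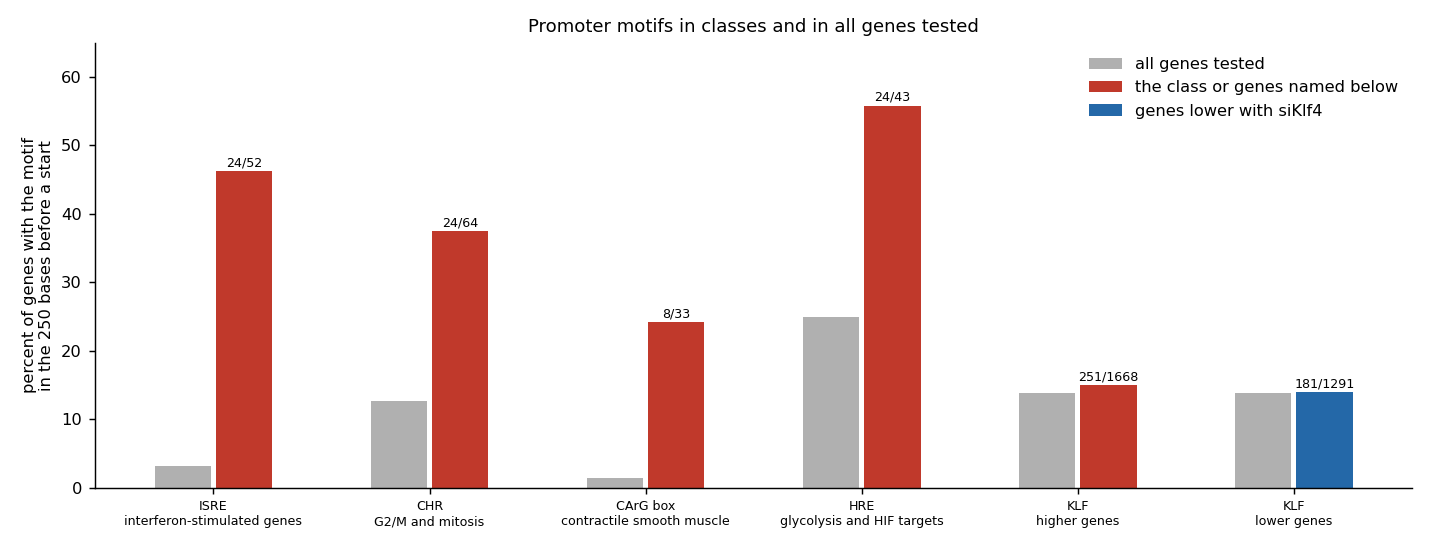
Percent of genes with a motif in the 250 bases before a RefSeq start, in all tested genes (grey), in the class or the higher genes named under each pair (red) and in the lower genes (blue), with counts above the bars. The ISRE stood in 46.2% of interferon-stimulated genes and 3.24% of all, whereas the KLF motif stood in 15% of higher and 14% of lower genes.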

How the data were processed

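Bulk poly-A, strand-specific RNA-seq of 12 libraries was deposited as 1 table of TPM values per cell type. The authors aligned reads to mm10 with HISAT2 and estimated TPM with StringTie; the GENCODE release and the strand setting of the counting are not given in the sources used here. TPM keeps no depth, so the precision of a value rests on 3 libraries a group, said to come from independent experiments, and abundant genes that rise lower the others. Here, log2(TPM + 1) was fitted with limma 3.58.1 (R 4.3.3, eBayes with trend) for genes whose mean over the libraries reached 1 TPM, siKlf4 against Scr, with Benjamini-Hochberg adjustment over all genes tested and a threshold of 0.05; the fold changes understate those of low genes. The interaction was fitted over 12 libraries. Scripts were tested on simulated data and ran in Python 3.11.15. Where a symbol had several identifiers, the one with the highest TPM stood for it. Positions are from GENCODE annotation and sequences from RefSeq, both on GRCm38.

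The functional classes, marker lists and genes were chosen with earlier results of these data known. By rule the text names Klf4, the 12 largest rises and 12 largest falls, up to 3 rises and 3 falls per class and a list of anchor genes; other class members named were chosen after their values were seen. Alternatives covered the pseudocount, filter, scaling, trend, a term for column naming, numbered libraries alone, a replicate block, a fit over both cell types, and each library left out. Some genes are not reported here.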

Additional observations from a re-analysis of the deposited data

Results flagged for a closer look

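A difference between the cell types was flagged wherever limma's interaction term over the 12 libraries passed the threshold for a gene among the largest changes or the anchor genes, and the gene was called in opposite directions in SMCs and PDGFR-β+ cells. Over all genes the difference passed for 4297 genes. The differences (log2 fold change in SMCs minus that in PDGFR-β+ cells) follow.

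Acta2, Tagln, Ctgf, Tgfb1 and Nrep each rose in SMCs and fell in PDGFR-β+ cells. The difference was 1.30 for Acta2, 1.35 for Tagln and 1.52 for Ctgf. It was 1.78 for Tgfb1 and 2.97 for Nrep. Of the cell cycle genes flagged, the values were Mki67 at 1.81, Ccnd1, cyclin D1, at 2.21, and Cdkn1c, the p57 inhibitor, at -2.36. The calls of Tagln, Nrep, Ccnd1 and Cdkn1c in SMCs were lost in some fits that left out a library: the adjusted p of Ccnd1 reached 0.0966 and that of Cdkn1c 0.0999, both without siKlf4 replicate 2, that of Tagln 0.0673 and that of Nrep 0.0512, both without siKlf4 replicate 3.

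Mediators and metabolic genes included Ptgs2 at 3.43, Csf1 at 1.27 and Pfkp at 2.05. Krt19 stood at 2.94 and Prl3a1 at 2.91. Gdpd2, a glycerophosphodiester phosphodiesterase (chrX:100729873-100738895, plus strand), had a difference of -3.54, the largest in size among these 14 genes. Groups of 3 libraries are too small for a test of single outlying libraries.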

How the results depend on the processing

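The count of called genes was 3910, with 2136 higher and 1774 lower, and it stayed within 1.5 times of this in the 10 alternatives that left out no single library. It was largest, at 5492, with a term for column naming. Leaving out 1 library gave a total of 2216 to 3563, with 1157 to 2037 higher and 1044 to 1578 lower, the lowest totals being those without siKlf4 replicate 2 or 3; 1911 genes kept their call in all 6 such fits. The numbered libraries alone gave 2126 higher and 1826 lower, and 3159 genes kept call and direction there. With a replicate block on these 4 libraries, 1467 were higher and 1339 lower, and the interaction gave 1767 higher and 2115 lower. Deviations of same-numbered libraries correlated at 0.107 over only 2 pairs, so the numbers do not establish a pairing.

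Of 197 called genes that the naming rule gave besides Klf4, 45 lost the call in at least 1 of the 10 alternatives that did not leave out a single library (2 of them used the numbered libraries alone) and 50 in at least 1 fit that left out a library, and none reversed. Of 33 class medians, 23 kept their sign in every setting and 10, all within 0.076 of 0, changed it in at least 1. Without a minimum TPM, 1650 genes were higher and 1294 lower. Depth is unknown, so no counting error can be given.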
